A study of Mus musculus with 8 samples.

Results

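The translesion synthesis polymerases and the ubiquitin ligase gene Rad18 were followed as 7 transcripts, Polh, Poli, Polk, Rev1, Rev3l, Mad2l2 and Rad18, chosen by their symbols from the 21879 genes of the deposited table. All 7 were in the table and all 7 passed the expression filter, among 11576 genes tested. RNA came from TCMK-1, an immortal line of mouse kidney tubule epithelium. Of the 8 libraries, 4 were from cells with a control shRNA (labelled smgGDS control) and 4 from cells with an shRNA against smgGDS, the product of Rap1gds1. Every library was from cells given 20 µM cisplatin, so what is compared is the knockdown under the drug, and a response to cisplatin cannot be read from it. Nothing in the labels ties the libraries of 1 group to different cultures or clones. Each group may be 1 line, and p-values then reflect the variation among these libraries, part of which may be technical.

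Cisplatin leaves crosslinks between DNA bases that stop the replicative polymerases. Cells can copy past such damage by translesion synthesis, in which RAD18, working with the ubiquitin-conjugating enzyme RAD6, attaches ubiquitin to the sliding clamp PCNA. The modified clamp recruits the Y-family polymerases eta, iota, kappa and REV1, and polymerase zeta (catalytic subunit REV3L, with REV7 encoded by Mad2l2) then extends the new strand. Polymerase eta is known for inserting bases opposite cisplatin adducts on neighbouring guanines.

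None of the 7 transcripts passed the test between knockdown and control, by edgeR, DESeq2 or limma voom (0 called by each at an adjusted p under 0.05). Over all 11576 genes edgeR called 20.2%, with 11.1% higher and 9.15% lower in the knockdown (1285 and 1059 genes). Scaled by library totals alone 766 were higher and 1951 lower, so that the larger share was then lower. An unadjusted p under 0.05 was reached by 1 member, Polk, with edgeR and limma voom, and by 0 with DESeq2. With edgeR, 3700 of all 11576 tested genes reached it. The estimates lay between -0.25 for Polk and 0.26 for Rev1 on the log2 scale, given throughout as knockdown minus control, with a median of -0.02 against 0.00 over all tested genes. In these bulk samples fewer cells with a transcript and less of it per cell cannot be told apart.

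The shRNA target was depleted in every knockdown library. Counts of Rap1gds1 lay between 181 and 276 in the control libraries and between 30 and 38 in the knockdown libraries. Total expected counts lay between 11561000 and 16059200 per library (rounded to 6 digits). Knockdown replicate 4 stood apart from the other knockdown libraries, at 20.9 on the first principal component (29.2% of the variance) against 8.86 to 9.58 in the other 3. The controls lay between -16.5 and -8.86 on this component. Without knockdown replicate 4 the log2 fold change was 0.06 for Polh, 0.05 for Poli and 0.25 for Rev1. It was -0.05 for Rev3l and -0.16 for Rad18, and none of these passed. Values without it for Polk and Mad2l2 are given below. Of 12 tubule epithelial markers only 6 had enough counts to be tested, and 1 of these, Aqp1, fell. In the controls Aqp1 averaged 155 CPM and Pax8 8.97 CPM, while Hnf4a had 0 counts in every library. The highest count in any library was 5 for Cdh1 and 13 for Cdh16, so the epithelial label rests on few markers. The summed marker level was 164 to 179 CPM in controls and 140 to 147 CPM in the knockdown for the epithelial list. Most of it was Aqp1, with means of 155 and 127 CPM. Of the other tested epithelial markers, Krt8 and Krt18 had estimates below 0 and Epcam, Lrp2 and Pax8 above 0, without a call. For 7 fibroblast and pericyte markers the sum was 309 to 334 and 366 to 421 CPM, most of it Col1a1 (means of 281 and 328 CPM). Of these 7, 4 were tested and all 4 rose. The part of these marker shifts in the values below was not tested. Leukocyte markers summed to 52.5 to 61.8 CPM over all libraries, nearly all of it Cd68, with 1 count at most for Ptprc. The endothelial sum was at most 1.37 CPM.

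Promoter sequences are shown for the members with the lowest and the highest estimate, Polk and Rev1, and for Mad2l2, the most abundant. RefSeq promoter windows on GRCm38.p6, from 250 bases before to 50 after a start site, were matched by symbol for 5 of the 7 members (8 windows); Poli and Rev3l had no entry. Each window was searched on both strands for CCAAT (bound by NF-Y), TGACGTCA (the cyclic AMP response element), TTGCATCA (the ATF4 composite element), TTTCGCGC or TTTGGCGC (E2F) and GGGCGG (SP1). No match overlapped another. The 150 bases before the start site follow, 5′ to 3′ on the gene's strand, with matches in capitals.
Rev1, chr1:38129667-38129816, minus strand: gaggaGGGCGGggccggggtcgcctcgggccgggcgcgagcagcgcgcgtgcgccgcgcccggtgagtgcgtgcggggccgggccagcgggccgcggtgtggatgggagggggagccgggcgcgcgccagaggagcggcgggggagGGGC
Polk, upstream start, chr13:96542580-96542729, minus strand: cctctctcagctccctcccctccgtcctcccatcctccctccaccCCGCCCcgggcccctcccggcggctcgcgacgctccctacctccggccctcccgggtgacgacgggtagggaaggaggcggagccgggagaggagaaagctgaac
Mad2l2, downstream start, chr4:148140340-148140489, plus strand: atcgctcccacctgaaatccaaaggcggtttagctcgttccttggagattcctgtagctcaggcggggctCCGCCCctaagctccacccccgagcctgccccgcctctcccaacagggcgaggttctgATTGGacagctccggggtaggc

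The capitals in the Rev1 stretch are SP1 boxes, the last of which runs past the printed end. The Polk stretch holds 1 SP1 box, read on the opposite strand. The Mad2l2 stretch, printed from the downstream start because of its CCAAT box, has that box 22 bases before the start and 1 SP1 box, both on the opposite strand. The upstream window of Mad2l2, not printed, has a GC content of 79.0%, 2 SP1 boxes and no CCAAT box. That CCAAT box was the only one in the 8 windows, against 37.4% of all 32851 windows holding at least 1. SP1 boxes lay in 5 of the 8 windows (both of Mad2l2, those of Polh and Rev1, and the upstream window of Polk), against 35.7% of all windows. No match to any of the 5 motifs was found in the 2 windows of Rad18. These 2 windows, 112696599 to 112696898 and 112696621 to 112696920 on chromosome 6, share most of their bases. They are thus nearly the same sequence counted as 2 of the 8. The ATF4 letters occurred once, beginning at base 21 after the downstream start of Polk, and are in 0.895% of all windows. The E2F letters (0.813% of all windows) and the cyclic AMP element (1.79%) were in none of the 8. GC content was 83.0% in the Rev1 window, 72.0% in Polh and 44.3% at the downstream start of Polk, against a median of 52.7%. A match describes letters and not binding, and none of these genes passed the test.

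Per transcript length the 7 mRNAs covered a wide range in both groups. By the deposited FPKM, which scales counts by length and depth, Mad2l2 was highest with a mean of 36.9 over the 8 libraries. Polh followed at 4.89, Rad18 at 3.59, Polk at 2.81, Poli at 1.71, Rev1 at 1.42 and Rev3l at 0.385. Mad2l2 was above 80.1% of the tested genes and Rev3l above 5.52%, and the median of tested genes was 6.56 FPKM. The ranges of Mad2l2 and Polh did not overlap, nor did those of Polk and Poli or of Rev1 and Rev3l. The neighbours Polh and Rad18, Rad18 and Polk, and Poli and Rev1 overlapped in range over the libraries, although within a library Polh exceeded Rad18 in all 8, Rad18 exceeded Polk in 7 and Poli exceeded Rev1 in 7. The catalytic subunit of polymerase zeta was thus the lowest of the set and its REV7 subunit the highest. REV7 also serves in complexes outside translesion synthesis, such as shieldin.

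**Figure D1:**
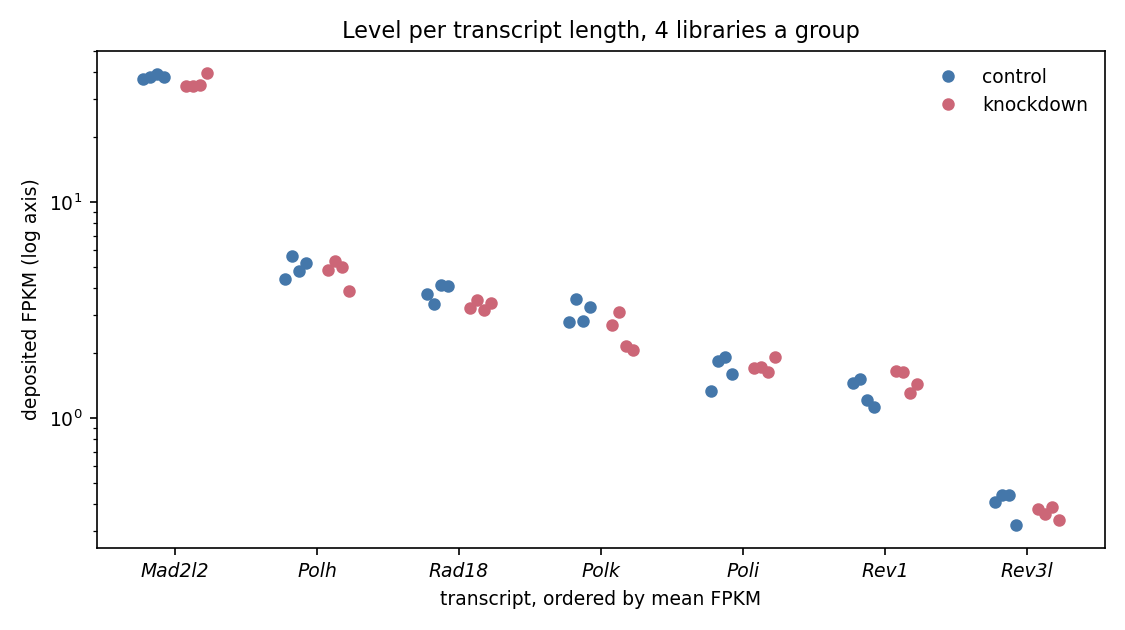
Deposited FPKM of each transcript (log axis) in the 4 control and 4 knockdown libraries, ordered by the mean over all 8, each point 1 library. Mad2l2 lies between 34.5 and 39.4 FPKM and Rev3l between 0.32 and 0.44 FPKM, with the other members between these 2.

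Mad2l2 made up 71.2% ± 1.16 of the summed FPKM of the 7 transcripts in controls and 71.6% ± 2.70 in the knockdown (SD, n = 4 each). Among the other 6, Polh made up 32.6% ± 1.66 in controls and 33.4% ± 2.83 in the knockdown. Rad18 made up 25.1% ± 3.00 and 23.5% ± 1.78, and Polk 20.2% ± 1.49 and 17.5% ± 2.01. Each of these shares overlapped between the groups.

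Polh, encoding polymerase eta (ncbi_80905, chromosome 17, 46171355 to 46202641 on GRCm38.p6, minus strand), showed no detected difference between the groups. Its normalised values were 12.6, 16.3, 13.8 and 15.4 CPM in control replicates 1 to 4 and 14.5, 15.9, 15.2 and 11.7 CPM in knockdown replicates 1 to 4. The groups overlapped throughout, with the lowest value in knockdown replicate 4 and the highest in control replicate 2. The log2 fold change was -0.02 (SE 0.10, edgeR adjusted p = 0.938), and the 95% interval ran from 85.5% to 114% of control. Its sign changed when some single libraries were left out, between -0.09 and 0.06 on the log2 scale. Counts of Polh were whole in 7 of 8 libraries.

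Poli, encoding polymerase iota (ncbi_26447, chromosome 18, 70508680 to 70534950, minus strand), was low, with 49 to 79 counts per library. It was at 3.88, 4.76, 5.10 and 4.19 CPM in the controls and 4.49, 4.79, 4.65 and 5.43 CPM in the knockdown. Control replicate 1 was lowest and knockdown replicate 4 highest, and the groups overlapped. Poli had a log2 fold change of 0.11 (SE 0.16, edgeR adjusted p = 0.693), with an interval from 86.3% to 135% of control. It was 0.04 without control replicate 1 and 0.17 without control replicate 3, the ends of its range over the fits without 1 library, and did not pass in any of them.

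Polk, encoding polymerase kappa (ncbi_27015, chromosome 13, 96480687 to 96542579, minus strand), had the lowest estimate and missed the threshold. It was at 11.5, 14.6, 11.7 and 13.6 CPM in the controls and 11.6, 13.3, 9.29 and 8.95 CPM in the knockdown. Knockdown replicates 3 and 4 lay below every control library, whereas knockdown replicates 1 and 2 lay within the control range. The log2 fold change of Polk was -0.25 (SE 0.12, unadjusted p = 0.0377, edgeR adjusted p = 0.129), with an interval from 71.5% to 99.0% of control before any adjustment for multiple tests. Left out one at a time, 1 library changed this call. Without knockdown replicate 2 the estimate was -0.36 and passed (edgeR adjusted p = 0.0308), and without knockdown replicate 4 it was -0.17 (edgeR adjusted p = 0.375). The spread of Polk among knockdown libraries, a coefficient of variation of 18.9%, was the widest of any member in either group, where counting alone gives 8.45%.

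Rev1, encoding a dCMP transferase that also acts as a scaffold for the other polymerases (ncbi_56210, chromosome 1, 38052786 to 38129921, minus strand), had the highest estimate and did not pass. It was at 4.81, 4.96, 4.76 and 4.11 CPM in the controls and 5.61, 5.62, 5.34 and 5.77 CPM in the knockdown. All 4 knockdown libraries lay above all 4 controls, the 1 member of 7 whose groups did not overlap, where 11.5% of all tested genes had such separation upward, 9.61% downward and 21.1% in either direction. For Rev1 the log2 fold change was 0.26 (SE 0.15, edgeR adjusted p = 0.226), with an interval from 97.5% to 147% of control. With 48 to 82.3 counts per library, counting alone gives a coefficient of variation of about 12.0% in controls and 11.8% in the knockdown. The observed values were smaller, 7.99% and 2.95%, so the separation of the groups came with a spread narrower than counting gives. Over all alternatives the adjusted p of Rev1 lay between 0.187 and 0.436.

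The deposited FPKM of Rev1 did not separate the groups, at 1.46, 1.52, 1.22 and 1.13 in the controls and 1.65, 1.63, 1.31 and 1.44 in the knockdown. The transcript length that count and FPKM imply together ranged from 3336 to 3993 bases among libraries for Rev1. It was between 3336 and 3400 bases in replicates 1 and 2 of both groups and between 3674 and 3993 bases in replicates 3 and 4 of both. Between the lowest and the highest library it varied by 19.7% for Rev1 and 14.5% for Poli, but by 0.344% for Polk and 0.492% for Rad18. Rev1 has 4 protein-coding transcripts in GENCODE M21, the longest of 4262 bases. Of its 6168 exonic bases, 1643 overlap exons of Eif5b on the opposite strand. Not all Rev1 counts were whole, so reads may have been divided between features, and no source used here gives the strand setting. Eif5b itself averaged 51.9 CPM (SD 0.892) over the 4 controls and 51.3 CPM (SD 2.04) over the 4 knockdown libraries, a log2 fold change of -0.02 (edgeR adjusted p = 0.875). The part of this overlap in the Rev1 values was not tested.

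Rev3l, encoding the catalytic subunit of polymerase zeta (ncbi_19714, chromosome 10, 39731561 to 39875211, plus strand), has the longest transcript of the set, 10713 bases in 32 exons. It was at 4.31, 4.52, 4.68 and 3.42 CPM in the controls and 4.14, 4.01, 4.25 and 3.76 CPM in the knockdown. All knockdown values lay inside the control range. Rev3l had a log2 fold change of -0.08 (SE 0.17, edgeR adjusted p = 0.800), and its interval from 74.9% to 120% of control was the widest of the 7 members on the log2 scale, with 40 to 75 counts per library. The estimate was -0.16 without control replicate 4 and -0.03 without control replicate 3, the ends of its range, with no call in any fit without 1 library.

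Mad2l2, encoding REV7 (ncbi_71890, chromosome 4, 148130158 to 148145704, plus strand), was measured most precisely, with 549 to 758 counts per library. It was at 45.3, 45.7, 48.4 and 47.0 CPM in the controls and 44.4, 44.1, 44.1 and 51.0 CPM in the knockdown. Knockdown replicate 4 was the highest of all 8 libraries and the other 3 knockdown libraries were below every control. For Mad2l2 it was -0.02 on the log2 scale (SE 0.06, edgeR adjusted p = 0.847), with an interval from 90.8% to 107% of control. Without knockdown replicate 4 it was -0.07 (edgeR adjusted p = 0.439).

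Rad18, encoding the ligase that starts the pathway (ncbi_58186, chromosome 6, 112619851 to 112696691, minus strand), was at 9.48, 8.44, 10.6 and 10.4 CPM in the controls and 8.56, 9.19, 8.33 and 9.03 CPM in the knockdown. Control replicate 2 lay among the knockdown libraries, and the groups overlapped. The log2 fold change of Rad18 was -0.14 (SE 0.12, edgeR adjusted p = 0.421), with an interval from 77.0% to 106% of control. The estimate was below 0 with every library left out in turn, between -0.21 and -0.10, and did not pass in any of these fits.

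**Figure D2:**
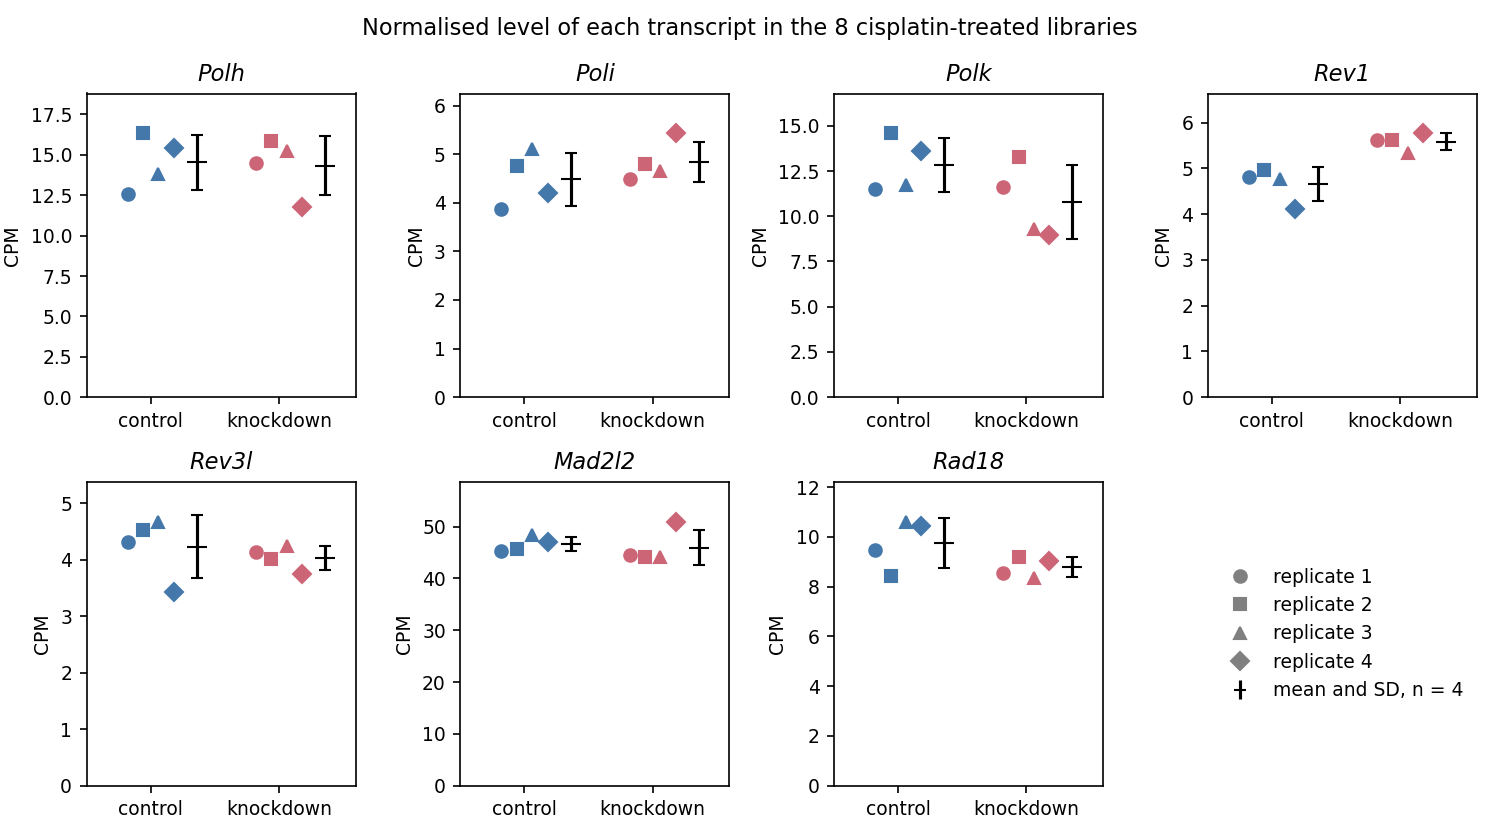
Normalised level (CPM, linear axis from 0) of each transcript in the 4 control and 4 knockdown libraries, with marker shapes for replicate numbers and bars for mean and SD (n = 4). Rev1 is the member whose groups do not overlap, and Polk has 2 knockdown libraries, at 9.29 and 8.95 CPM, below every control.

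**Figure D3:**
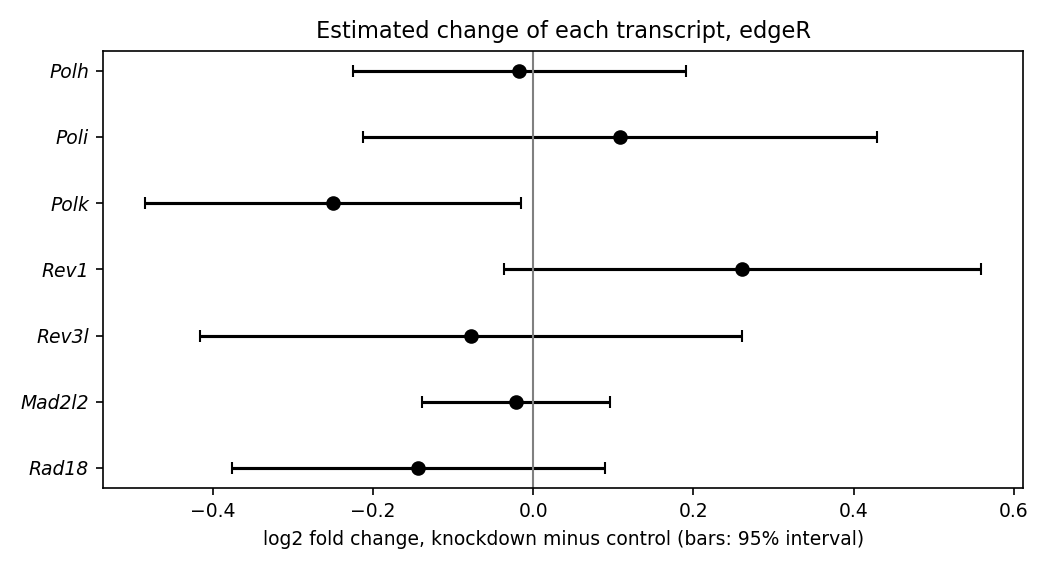
Log2 fold change of each transcript, knockdown minus control, from edgeR over all 8 libraries, with bars for 95% intervals before multiple-test adjustment. Estimates run from -0.25 for Polk to 0.26 for Rev1, and the interval of Mad2l2 is the narrowest.

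**Figure D4:**
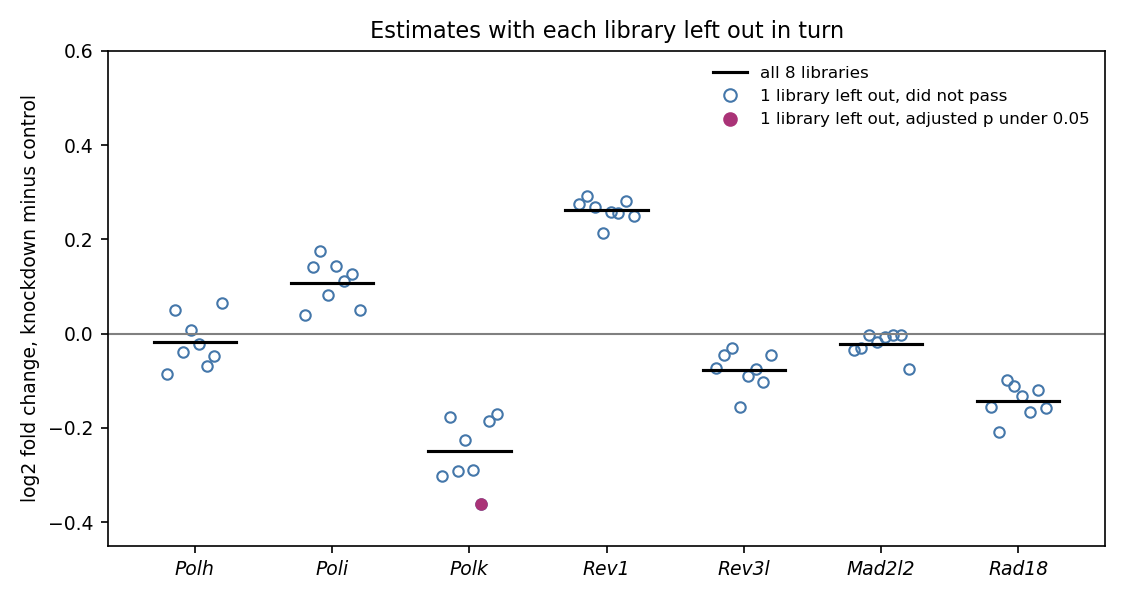
Log2 fold change of each transcript with all 8 libraries (line) and with each library left out in turn (points, control replicates 1 to 4 then knockdown replicates 1 to 4 from left to right). Polk without knockdown replicate 2, at -0.36, is the fit that passed the threshold.

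Beyond the 7 members, 48 genes of damage tolerance in 6 lists were examined, of which 46 were tested. Of these, 3 were higher and 7 lower in the knockdown (6.52% and 15.2%, against 11.1% and 9.15% of all tested genes). The other 36 were called in neither direction, as were 9232 of all 11576 tested genes. The counts by list below are to be read against these shares. The median of the 46 was 0.00 on the log2 scale. The 2 not tested were Dntt and Poln, with at most 11 and 6 counts. Scaled by library totals alone, which puts the median of all genes at -0.06 on the log2 scale, 1 was higher and 12 lower, and the medians of the 6 lists then lay between -0.16 and -0.01. Leaving out 1 library left 3 lower without control replicate 2 and 4 lower without control replicate 3 or knockdown replicate 4, each beside 3 higher.

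In the list for PCNA ubiquitination, 1 of 8 rose and 2 fell, with a median of 0.03. The ubiquitin ligase Rfwd3 fell by 0.17 on the log2 scale (edgeR adjusted p = 0.000308), with means of 211 and 187 CPM, and kept its call under all 18 alternatives. Rnf8, a ubiquitin ligase of the break response, fell by 0.18 on the log2 scale (edgeR adjusted p = 0.0281) and lost its call without control replicate 2, 3 or 4 and without knockdown replicate 2 or 4 (edgeR adjusted p up to 0.125). Ube2n, the conjugating enzyme UBC13 that lengthens the ubiquitin chain on PCNA, rose by 0.11 (edgeR adjusted p = 0.0187). That call was lost without knockdown replicate 2 (edgeR adjusted p = 0.0608), under library totals alone and on FPKM. The genes of RAD6, partner of RAD18, did not pass. Ube2a was at 124 and 122 CPM and Ube2b at 93.2 and 96.4 CPM in control and knockdown, with log2 fold changes of -0.02 and 0.05.

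Of 5 genes for PCNA deubiquitination and unloading, 0 were called by edgeR, DESeq2 or limma voom. An unadjusted p under 0.05 was reached by 2 with each method, and with edgeR by 3700 of all 11576 tested genes. Under library totals alone Atad5 and Wdr48 were lower (edgeR adjusted p = 0.0120 and 0.0146). The median was -0.10. Atad5, whose product unloads PCNA, was nearest to the threshold (log2 fold change -0.22, edgeR adjusted p = 0.0502). Atad5 was called with the size factors of DESeq2 in edgeR, with a filter at a mean CPM of 5, with the replicate block and without control replicate 3 (edgeR adjusted p = 0.0478, 0.0400, 0.0394 and 0.0240). Wdr48, a cofactor of USP1, was called without knockdown replicate 1 (edgeR adjusted p = 0.0334). Usp1, the deubiquitinase of PCNA and the most abundant of the list, was at 507.0 and 507.5 CPM.

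Among 9 genes for the sliding clamp, its loader and the single-strand binding complex RPA, 2 rose and 1 fell, with a median of -0.02. Rpa3, the smallest RPA subunit, was at 14.7, 16.8, 15.9 and 16.8 CPM in the controls and 19.5, 20.0, 19.5 and 20.6 CPM in the knockdown. All knockdown libraries were above all controls, as for 11.5% of all tested genes. Rpa3 rose by 0.31 (SE 0.09, edgeR adjusted p = 0.00604) and kept its call under all 18 alternatives. The clamp loader subunit Rfc5 rose by 0.16 (edgeR adjusted p = 0.00545), a call lost under library totals alone and on FPKM. Rfc3, another loader subunit, fell by 0.14 on the log2 scale (edgeR adjusted p = 0.0265). The Rfc3 call was lost without knockdown replicate 4 and without control replicate 2 or 3 (edgeR adjusted p = 0.137, 0.0777 and 0.0681). Pcna itself, the target of RAD18, was at 475 and 482 CPM (log2 fold change 0.02, edgeR adjusted p = 0.681).

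Of 9 subunits of the replicative polymerases, 2 fell and none rose, and the median was 0.00. Both are accessory subunits of polymerase delta. Pold4 fell by 0.25 on the log2 scale (edgeR adjusted p = 3.7e-05; means of 107 and 89.8 CPM) and passed under all 18 alternatives. Pold3 also belongs to the polymerase zeta holoenzyme, together with Pold2. It was at 42.1, 45.8, 45.2 and 38.8 CPM in the controls and 38.5, 37.3, 37.7 and 36.7 CPM in the knockdown. The groups did not overlap, as for 9.61% of all tested genes in this direction, but control replicate 4 lay close to the knockdown libraries. Pold3 fell by 0.20 on the log2 scale (SE 0.06, edgeR adjusted p = 0.0165), and the call was lost without control replicate 2 or control replicate 3 (edgeR adjusted p = 0.0782 and 0.0624). Pold2 was at 116 and 117 CPM (log2 fold change 0.01, edgeR adjusted p = 0.900). Pole, the catalytic subunit of polymerase epsilon and the most abundant of the list by CPM, was at 148 and 150 CPM (edgeR adjusted p = 0.720). Of the 4 polymerase zeta genes, Rev3l, Mad2l2, Pold2 and Pold3, only Pold3 passed, where 20.2% of all tested genes did.

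Among 5 tested genes of other specialised polymerases, 1 fell, with a median of 0.05. Poll, encoding the X-family polymerase lambda of base excision repair and end joining, was at 57.4, 55.4, 58.3 and 62.5 CPM in the controls and 50.2, 43.4, 47.2 and 46.6 CPM in the knockdown. Every knockdown library was below every control, as for 9.61% of all tested genes. Poll fell by 0.31 on the log2 scale (SE 0.06, edgeR adjusted p = 4.64e-05) and passed under all 18 alternatives, the largest fall in the 6 lists.

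Of 10 genes for polymerase switching and fork remodelling, 1 fell, with a median of 0.00. Slf2 (listed under its older symbol Fam178a), whose product acts with SLF1 downstream of RAD18, fell by 0.24 on the log2 scale (SE 0.09, edgeR adjusted p = 0.0443). It was not called by DESeq2, on FPKM, without knockdown replicate 1, 3 or 4 or without control replicate 1, 2 or 3 (edgeR adjusted p up to 0.177). Vcp, the segregase that removes proteins from chromatin and the most abundant of the list, was at 544 and 540 CPM.

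**Figure D5:**
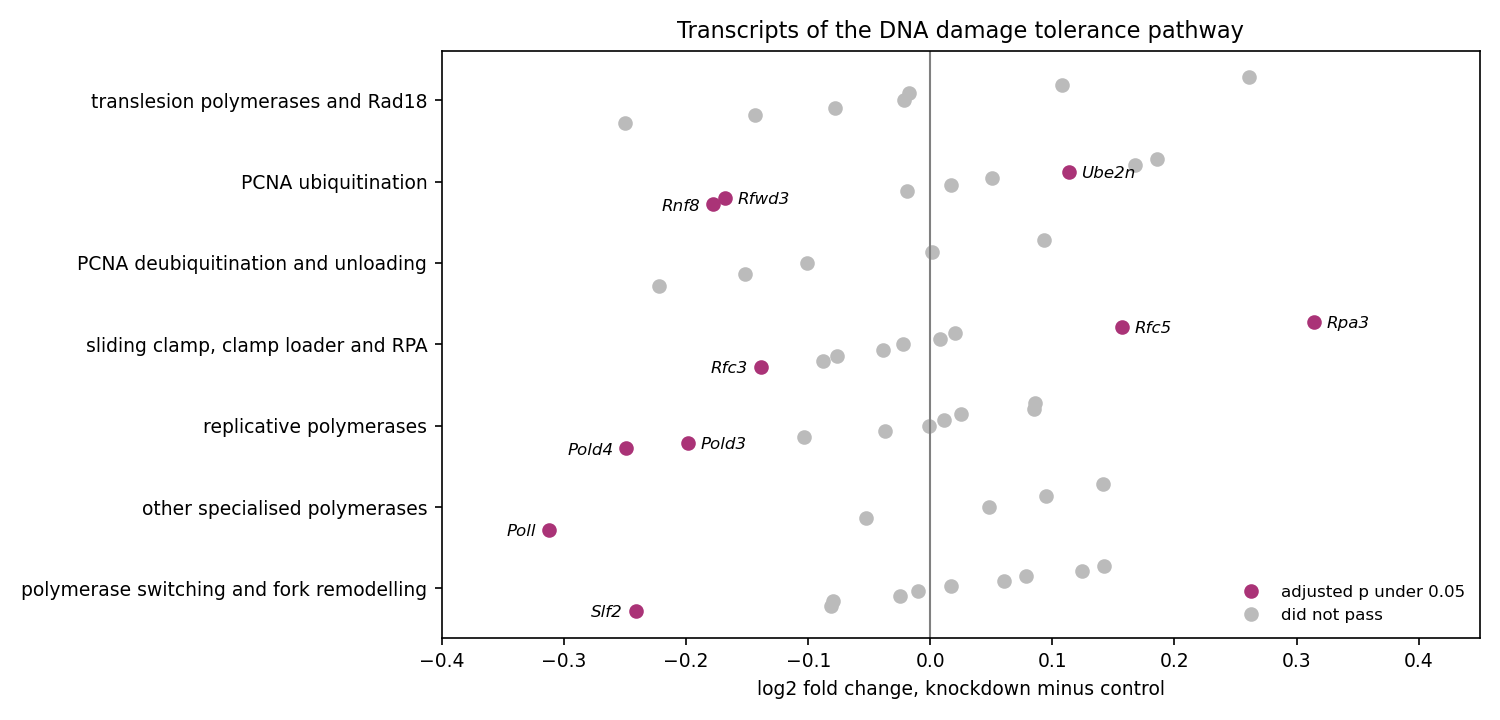
Log2 fold change, knockdown minus control, of each tested gene of damage tolerance by list, each point 1 gene, named where its edgeR adjusted p is under 0.05. The 7 members in the top row lie among the other lists without a call, and the outermost called genes are Poll at -0.31 and Rpa3 at 0.31.

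The genes that followed each member most closely over the 8 libraries were sought among 11151 others by Pearson r of log2 CPM, as a description only. The 2 closest were Snx7 (r = 0.992) and Bnip2 (0.986) for Rev1, Mad2l2 had Erc1 (0.976) and Nlrc3 (0.971), and Poli had Hoxb4 (0.975) and Ythdc2 (0.935). For Polk they were Prkrir (0.968) and Mzt2 (0.958), for Rev3l Zbtb14 (0.960) and Cars (0.939), for Polh Pdcd11 (0.958) and Psmg3 (0.956), and for Rad18 Gchfr (0.946) and Ttll7 (0.931). All values of r came from the same 8 libraries and share their depth and normalisation. Mean levels ran from 1.24 CPM for Hoxb4 to 186 CPM for Prkrir, with Ythdc2 at 3.35 CPM. The part of counting noise in r was not tested. None of these 14 genes passed the edgeR test, with adjusted p between 0.114 and 0.997, and no gene was listed for more than 1 member. They were picked for likeness to members without a call, so the lack of calls among them is no separate result. Each pair holds the highest of 11151 values over 8 libraries, and how high such values lie by chance was not tested.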

How the data were processed

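Poly(A)-selected RNA of 8 libraries was sequenced, 4 per group. The authors deposited 1 table with expected counts (estimated counts that need not be whole) and FPKM per gene and library, per the file headers. Per the submitters' processing notes the build was GRCm38.p6 and the tools, given without role or order, included RSEM, StringTie 1.3.1, HISAT2 2.4, Bowtie2 2.2.8, edgeR, DESeq2 and fastp 0.18.0. Of the values 6.52% were not whole (tolerance 1e-09). Sequences, gene positions and overlaps came from RefSeq tables of that build and from GENCODE M21.

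Expected counts as deposited were rounded, and edgeR 4.0.16 (R 4.3.3) was run over all 11576 genes that passed its default filter: TMM factors, robust quasi-likelihood F-test on group (two-sided), Benjamini-Hochberg adjustment, threshold 0.05. Each standard error is the log2 fold change divided by the root of F. CPM used TMM-scaled library sizes of the tested genes, and 1 count is 0.0603 to 0.0856 CPM. Replicates differed by more than sampling noise (chi-square per degree of freedom 1.92 to 3.81). Alternatives were other size factors, library totals, DESeq2 1.42.0, voom in limma 3.58.1, other filters, a replicate term, FPKM, a threshold of 0.01 and each library left out. The procedure was also run on simulated data, with added changes larger than any member estimate over all 8 libraries. That run gives no measure of recovery at the sizes estimated for the members.

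The members, lists and tests were chosen with earlier results of these data known. Named from the lists were called genes (up to 4) and the gene of highest mean CPM. Ube2a, Ube2b, Pold2, Atad5, Wdr48, Dntt, Poln and Eif5b were named besides, with their values in view. List genes were matched by symbol or, for 2 genes, by NCBI identifier.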

Additional observations from a re-analysis of the deposited data

Results flagged for a closer look

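In 3 of 44 groups of 4 libraries examined, for Rap1gds1, the 7 members and the named pathway genes, 1 library lay far from the other 3, where chance flags about 1 in 20. All 3 were knockdown replicate 4. Mad2l2 was at 51.0 CPM there and at 44.1 to 44.4 CPM in the other knockdown libraries. Rfc3 was at 78.5 CPM there and at 88.7 to 90.0 CPM in the others, and Vcp at 526 CPM against 543 to 546 CPM.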

How the results depend on the processing

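All 7 members stayed without a call under the 10 alternatives other than leaving out a library, and in every fit without 1 library except Polk without knockdown replicate 2, where its log2 fold change was -0.36 and 1 member was lower; over the fits without 1 library, 0 to 1 members were lower and Polk lay between -0.36 and -0.17. Poli and Rev3l have no value at a mean CPM of at least 5. Polh changed sign in 3 of these fits without a call. With all libraries 1285 genes were higher and 1059 lower. Scaling by library totals gave 766 and 1951, and 1 and 12 of the pathway genes. On log2(FPKM + 0.5) 592 genes were higher and 1481 lower, and on log2(FPKM + 0.1) 588 and 1475, with 1 pathway gene higher and 7 lower on each; on FPKM, as with library totals, more genes were lower than higher. At an adjusted p of 0.01, 825 genes were higher and 580 lower, and 3 pathway genes were lower, by construction. Leaving out 1 library left 2 to 3 pathway genes higher and 3 to 7 lower, with 3 without control replicate 2 and 4 without control replicate 3 or knockdown replicate 4. The cause of these shifts was not tested. Same-numbered libraries of the 2 groups deviated together with correlations of -0.0365 to 0.0828, so the numbers were not taken to pair them, although controls 1, 2 and 4 (3 of 4) correlated best with their own number and control 3 with number 4. The replicate block gave 1425 genes higher and 1235 lower, 3 and 8 pathway genes, and 0 members. With 40 to 82.3 counts per library for Poli, Rev1 and Rev3l, the 95% intervals before adjustment for multiple tests reached 0.30 to 0.34 on the log2 scale to either side of the estimate.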
